A study of Zea mays with 6 samples.

Results

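The microRNA miR394 and the single transcript listed as its cleavage target were examined in maize ovaries with incompletely fused carpels (IFC) and with completely fused carpels (CFC). Members were taken by name: the listed miRNA of the miR394 family that is the guide strand, and every gene with a degradome entry under a miR394 name. There were 2 members, zma-miR394a-5p and GRMZM2G064954, of 274 features in all, which were 161 known miRNAs and 113 genes with a degradome site. The gene was selected on its degradome signal (TPB, category, p-value and alignment score), which was already known, so these values are given as a description.

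All ovaries came from maize inbred line Yu-A474, grown in the field without stress, bagged before the silks emerged and sampled unpollinated at silking. IFC ovaries, in which the carpel walls do not close, and neighbouring CFC ovaries were taken from the middle of the same ears, and the sample labels name the CFC ovaries wild-type. Each phenotype had 2 small RNA libraries, 4 in all, from different rows of ears, and 1 degradome library made by mixing its 2 samples. Both phenotypes share 1 genotype and no treatment was applied, so the comparison is between ovaries of 1 line and not between a mutant and its parent.

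As background, a plant miRNA is cut from a hairpin precursor, and its guide strand directs an Argonaute protein to cleave mRNAs that pair with it almost completely. The mRNA is cut opposite the middle of the miRNA, and the downstream piece carries a free 5′ end that degradome sequencing reads. In Arabidopsis, miR394 pairs with the mRNA of LEAF CURLING RESPONSIVENESS, an F-box protein, and takes part in maintaining shoot stem cells and in leaf shape. F-box proteins are the parts of SCF ubiquitin ligases that bind the protein to be degraded, and in some of them a kelch repeat domain does the binding.

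The mature guide strand is shown because it sets which mRNAs can be cut. Its seed, bases 2 to 8, is in capitals, T stands for U, and 1 of the 161 listed miRNAs, itself, carries that seed. The second line is the reverse complement of the guide, which is the site sequence that an alignment score of 0 stands for. It was built from the miRNA and not read from the transcript, and its capitals mark the bases on either side of the cut.
zma-miR394a-5p: tTGGCATTctgtccacctcc
site in GRMZM2G064954: ggaggtggaCAgaatgccaa

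The guide is listed on the precursor MIR394a, at chr5:193872007-193872132 on the plus strand, in a genome build that is not given in the sources used here. The precursor sequence is shown because both arms of the hairpin were listed, and it carries the 5p guide at bases 21 to 40 and the opposite 3p strand at bases 90 to 110, both in capitals. It is 126 bases long as deposited, and bases 80 to 87 in the loop are given as N.
MIR394a precursor: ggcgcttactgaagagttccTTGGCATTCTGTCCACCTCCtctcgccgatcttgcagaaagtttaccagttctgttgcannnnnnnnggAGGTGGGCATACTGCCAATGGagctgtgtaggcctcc
The deposited folding energy of this hairpin was -49.3 kcal/mol, its GC content 50.8% and its minimal folding energy index 0.8. In the deposited fold, 15 of the 20 guide bases were paired with bases of the 3p strand. The maize genome has MIR394 genes named a and b, and the listed name is the first of a group of equal known sequences, so reads of the 2 loci cannot be told apart.

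Levels of the guide were read as normalized expression (NE), the reads of a miRNA scaled to the clean reads of its library (RPM). The commonest NE value in a library, taken as 1 read, was 1.15 and 0.837 in the IFC libraries and 0.717 and 0.879 in the CFC libraries. On that reading the libraries held between 873087 and 1394658 reads. The intervals below are exact Poisson 95% intervals that rest on it and cover counting error only. Known miRNAs summed to an NE of 19255 and 26590 in the IFC libraries and of 28156 and 28278 in the CFC libraries. IFC replicate 1, with the lowest read total, listed 42 known miRNAs at 0, against 24 to 26 in the other libraries.

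Guide strand zma-miR394a-5p had an NE of 131 (interval 108 to 157) in IFC replicate 1 and of 99.2 (81.7 to 119) in IFC replicate 2. In the CFC libraries its NE was 288 (261 to 318) in replicate 1 and 39.5 (28.8 to 52.9) in replicate 2. The CFC libraries held both the highest and the lowest value, so that both IFC values lay between them. The IFC replicates differed 1.32-fold with overlapping counting intervals, whereas the CFC replicates differed 7.29-fold with intervals far apart. In whole ovaries, fewer cells that carry a miRNA and less of it in each cell cannot be told apart.

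**Figure D1:**
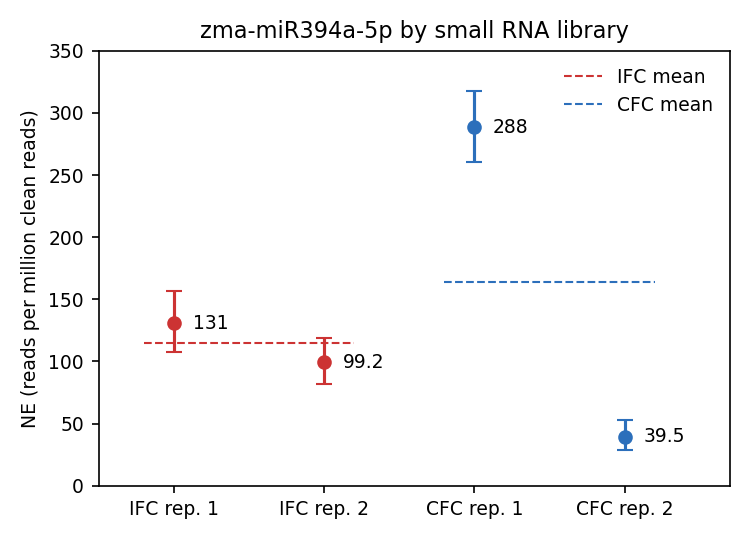
NE of zma-miR394a-5p (y axis, RPM of clean reads) in the 4 small RNA libraries (x axis), with exact Poisson 95% intervals as bars and group means as dashed lines. Both IFC points, 131 and 99.2, sit between the CFC points, 288 and 39.5.

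The level of miR394 was therefore not separated by phenotype. Mean NE was 115 ± 22.2 in IFC ovaries and 164 ± 176 in CFC ovaries (SD, n = 2 each). On the log2(NE + 1) scale the fitted IFC minus CFC difference was 0.08 (SE 0.93, 95% interval -1.89 to 2.05). This SE and interval draw on a spread shared across the tested miRNAs. They are narrower than the libraries of miR394a-5p alone would give. The adjusted p was 0.999 by limma with Benjamini-Hochberg adjustment over the 145 miRNAs tested. The arithmetic mean was lower in IFC ovaries while the log2 difference was slightly above 0. The difference of the means was smaller than the SD of the CFC pair, though larger than that of the IFC pair, and the log2 difference was smaller than its SE. An exact permutation test of the log2 values, two-sided, gave p = 1, and with 2 libraries against 2 it cannot give less than 0.333.

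The same fit called 0 of the 145 miRNAs (0%) at an adjusted p under 0.05, and 1 of them (0.690%) had an unadjusted p under 0.05. Over these miRNAs the median log2 difference was -0.02, and 71 were higher in IFC ovaries. The IFC pair lay between the CFC pair for 31 of the 145 (21.4%), as it did for miR394a-5p, and the pairs did not overlap for 33 (22.8%). The position of miR394a-5p was thus shared with about as many miRNAs as separated by phenotype.

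The direction of the miR394 difference depended on single libraries. Without CFC replicate 1 the log2 difference was 1.50 (95% interval -0.39 to 3.40, adjusted p = 0.967), and without CFC replicate 2 it was -1.33 (-2.89 to 0.22, adjusted p = 0.262), both by limma. Without IFC replicate 1 it was -0.11, and without IFC replicate 2 it was 0.28. The group left with 1 library in these fits is assumed to vary like the other. With NE rescaled to the sum of known miRNAs the difference was 0.40, and that scaling also moved the median of all tested miRNAs to 0.25.

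**Figure D2:**
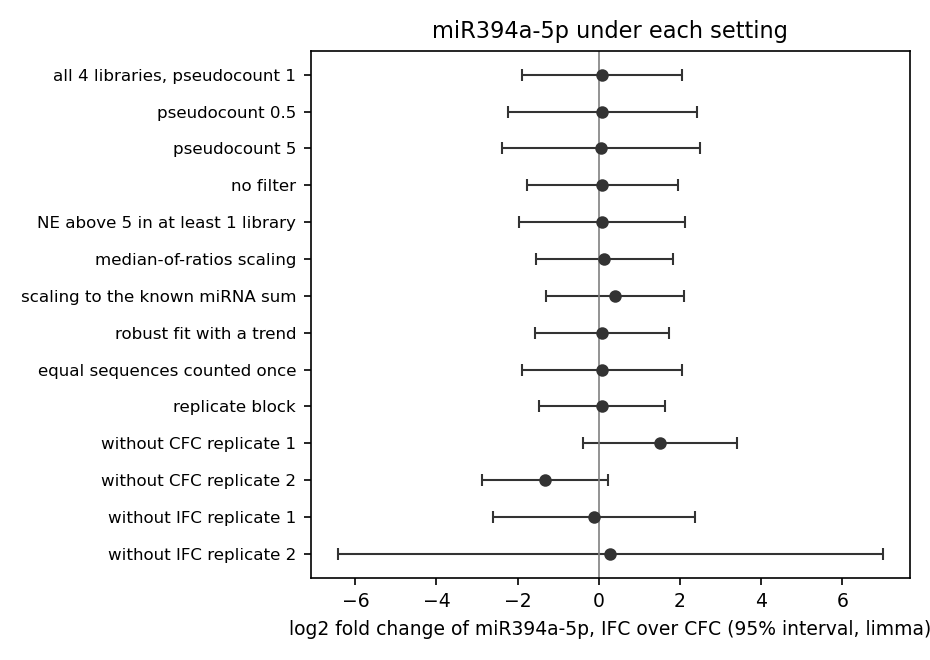
Log2 difference of zma-miR394a-5p, IFC over CFC (x axis), with its 95% limma interval as a bar, under each setting (y axis). Every interval spans 0, and the points without a CFC replicate lie at 1.50 and -1.33, on opposite sides of 0.

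Among all known miRNAs, miR394a-5p was moderately abundant. Its mean NE over the 4 libraries was 139, which ranked 21 of 161, and 16 of the 75 guide strands. Within single libraries its rank was 23 and 29 in the IFC ovaries and 18 and 39 in the CFC ovaries. Its share of the NE of all known miRNAs was 0.678% and 0.373% in the IFC libraries, against 1.02% and 0.140% in the CFC libraries. Those shares kept the order of the NE values, with both IFC libraries inside the CFC range.

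The nearest miRNAs above it by mean NE were zma-miR166b-5p (201), a passenger strand, osa-miR171b (256), which pairs with GRAS transcription factor mRNAs, and osa-miR166a-3p_R+1 (269), which pairs with HD-ZIP mRNAs. The nearest below were zma-miR162-3p_R+1 (136), zma-miR396a-5p (131) and zma-miR171d-5p (121), the last also a passenger strand. The miR162 family pairs with the mRNA of DICER-LIKE 1, the enzyme that cuts miRNA precursors. The SD of miR394a-5p over the 4 libraries was 106. The means of the 3 below and of zma-miR166b-5p lay within 1 SD of its mean, and the other 2 above it lay beyond.

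The opposite strand of the hairpin, zma-miR394a-3p_R+1, was listed at the limit of detection. It is shown for comparison with the guide, again with bases 2 to 8 in capitals.
zma-miR394a-3p_R+1: aGGTGGGCatactgccaatgg
Its NE was 0.573 and 0.418 in the IFC libraries and 0.717 and 0.439 in the CFC libraries, which is 0.5, 0.5, 1 and 0.5 reads. All 4 values were below the NE of 3 reads, 2.15 to 3.44. The guide exceeded it 228-fold and 237-fold in the IFC libraries and 402-fold and 90-fold in the CFC libraries, ratios that rest on at most 1 read of the 3p strand. A value of 0.5 is not a whole read, and the guide in IFC replicate 2 stood at 118.5 reads. These read numbers, and the counting intervals of the guide, are therefore approximate.

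The miRNAs whose levels over the 4 libraries were most like those of miR394a-5p were sought among the 37 guide strands with a mean NE of at least 10. By Pearson r of log2(NE + 1), the closest were osa-miR171b (r = 0.993), zma-miR156j-5p_R-1 (r = 0.979) and zma-miR167a-5p (r = 0.974). These are descriptions over 4 libraries, and the points of a library share its depth. Their sequences are shown because none has the seed of miR394, as the capitals at bases 2 to 8 show.
osa-miR171b: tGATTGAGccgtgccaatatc
zma-miR156j-5p_R-1: tGACAGAAgagagagagcac
zma-miR167a-5p: tGAAGCTGccagcatgatcta

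For osa-miR171b, NE was 278 and 223 in IFC ovaries and 365 and 159 in CFC ovaries. For zma-miR156j-5p_R-1, whose family pairs with mRNAs of SPL transcription factors, NE was 287 and 259 in IFC ovaries and 527 and 180 in CFC ovaries. For zma-miR167a-5p, whose family pairs with mRNAs of auxin response factors, NE was 14.2 and 13.1 in IFC ovaries and 34.7 and 7.53 in CFC ovaries. In all 3, as in miR394a-5p, CFC replicate 1 was highest and CFC replicate 2 lowest.

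**Figure D3:**
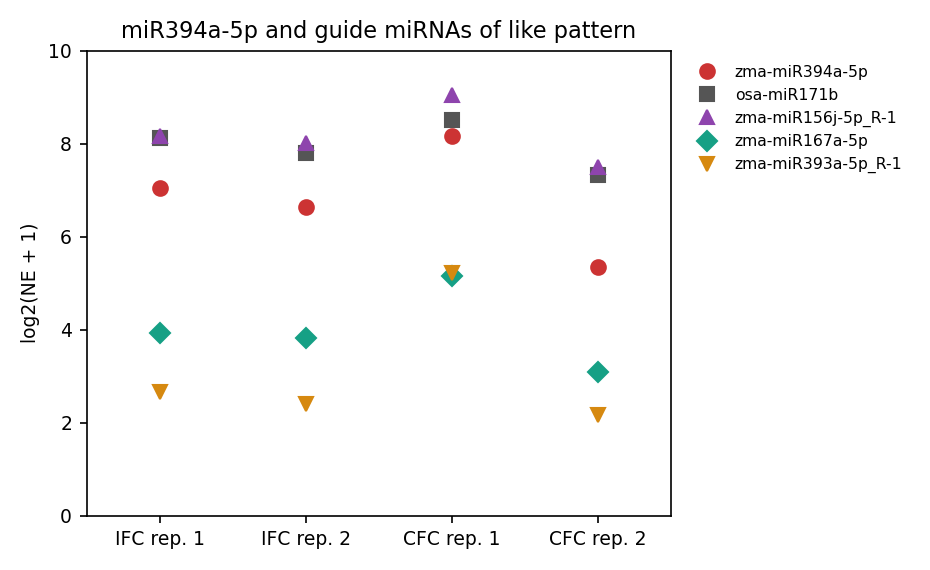
Log2(NE + 1) (y axis) of zma-miR394a-5p, of the 3 guide miRNAs most like it and of zma-miR393a-5p_R-1 in each library (x axis). For each of the 5 miRNAs, CFC replicate 1 is the highest point and CFC replicate 2 the lowest.

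This order was not rare. Of the 37 guide strands, 7 including miR394a-5p had the same order of libraries, and 19 were highest in CFC replicate 1. The ratio of CFC replicate 1 to CFC replicate 2 had a median of 1.56 over the 37, and miR394a-5p, with 7.29, ranked 3. Above it were zma-miR169p-5p (11.9) and zma-miR393a-5p_R-1 (10.3), and zma-miR167a-5p (4.61) came next. Between the IFC replicates the median ratio was 0.900, beside 1.32 for miR394a-5p. The part of depth or of ovary sampling in the difference between the CFC replicates was not tested.

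Signs of anther tissue were read from miR2118 and miR2275, which trigger phased small RNAs in anthers. The 7 listed miRNAs of these families summed to an NE of 33.2 and 49.4 in the IFC libraries and of 43.4 and 19.3 in the CFC libraries. Of the 7, 3 and 4 were above 0 in the IFC libraries, and 6 and 4 in the CFC libraries. Above the NE of 3 reads there were 3 and 2 in the IFC libraries, and 3 and 2 in the CFC libraries. In IFC replicate 2, zma-miR2118a lay exactly at that NE (2.51) and was not counted. Both miR2275 sequences were at 0 in the IFC libraries and at an NE of at most 1.76 in the CFC libraries, below the NE of 3 reads. Their part in the miR394 levels was not tested, and no listed miRNA served as a marker with which the ovary label could be checked.

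The degradome table listed 1 target gene for miR394, GRMZM2G064954, annotated as a galactose oxidase/kelch repeat superfamily protein. The pairing lay at bases 1405 to 1424 of transcript T01, 20 bases that match the length of the guide. The alignment score, a sum of mismatch penalties, was 0, the lowest possible, where the median of the sites was 3 and the highest listed 4. Tags began at base 1415, so the cut lay between bases 1414 and 1415, opposite bases 10 and 11 of the miRNA, the CA in capitals in the site sequence above. Of 471 degradome entries, 392 (83.2%) were cut at that place. The position of the site in the exons or UTRs of the gene was not analysed here.

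Cleavage signal was read as TPB, the tags at a site scaled to the reads of the library, and the value taken as 1 tag, the largest TPB of a site listed as a single read, was 59.1 TPB in the IFC library and 59.9 TPB in the CFC library. At the GRMZM2G064954 site TPB was 2542 in the IFC library and 2908 in the CFC library, which is 43 and 48.5 tags on that reading. The site was category 0 in both libraries, meaning the single highest tag peak on its transcript with more than 1 read. The deposited CleaveLand p-value, which concerns the peak and pairing within 1 library and not the phenotypes, was 0.00501 in the IFC and 0.00514 in the CFC library. Of the 208 sites, counted by gene and position, 48 (23.1%) were category 0 in both libraries, and 41 (19.7%) also had a p of 0.05 or less in both. Some genes fill several sites with equal TPB, because positions differ between their transcripts, and the 48 sites lay in 29 genes.

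With 1 mixed library a phenotype there is no replicate check of the site. The ratio of TPB, IFC over CFC, was 0.874, with an exact conditional 95% interval of 0.561 to 1.36 for counting error only, computed with 48 and 49 CFC tags as the extremes for the 0.5 tag. A difference was not detectable at this depth. Over the 29 genes with a category 0 site in both libraries, the median ratio was 0.789 and the range 0.292 to 2.71, and 23 of them were below 1. The miR394 target ranked 13 from the highest. The medians of TPB over these 29 genes were 709 in the IFC library and 1055 in the CFC library, and with TPB divided by these medians the ratio of the target was 1.30, on the other side of 1.

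The target had one of the higher TPB values among the listed degradome sites. By mean TPB the site ranked 6 of 208, and it ranked 6 in the IFC library, tied with GRMZM2G020805, and 8 in the CFC library. The CFC rank counts GRMZM2G129147 at each of its listed positions. The target site held 1.96% of all TPB over sites in the IFC library and 1.75% in the CFC library, sums that repeat such positions. The median TPB of sites with any signal was 66.5 in the IFC library and 89.9 in the CFC library. When each transcript entry is counted in place of each site, the rank by mean TPB is 21, since several genes are listed through many transcripts and miRNA names.

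The sites next above it belonged to other conserved miRNAs. GRMZM2G038198, an HD-ZIP gene cut at a miR166 site, had 5819 TPB in the IFC library and 7554 TPB in the CFC library. GRMZM2G412073, listed under miR319 without an annotation, had 7213 TPB in the IFC library and 7913 TPB in the CFC library. GRMZM2G063522, a NAC domain gene of miR164, had 9932 TPB in the IFC library and 12170 TPB in the CFC library. Next below it, GRMZM2G129147, a growth-regulating factor gene of miR396, had 2256 TPB in the IFC library and 2987 TPB in the CFC library, at a site listed at 2 positions in different transcripts. GRMZM2G020805, a TCP gene listed under miR159 and miR319, had 2542 TPB in the IFC library and 2458 TPB in the CFC library. The 3 sites above it thus had more than 2 times its signal in each library, and of those below it GRMZM2G129147 was higher than it in the CFC library.

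**Figure D4:**
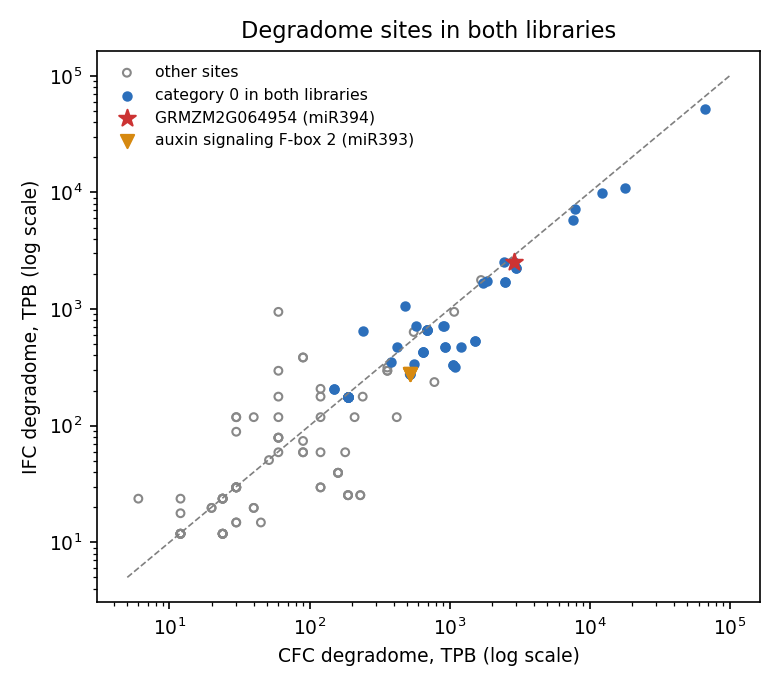
TPB in the IFC library (y axis) against the CFC library (x axis), both on log scales, for the 125 sites with signal in both. Filled points are category 0 in both libraries, the star is the GRMZM2G064954 site at 2542 and 2908 TPB, triangles are the 2 auxin signaling F-box genes of miR393, and the dashed line marks equal values.

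Other genes with F-box, kelch or galactose oxidase in the annotation were 2 genes named auxin signaling F-box 2, GRMZM2G137451 and GRMZM5G848945, so that the list had 3 genes in all. They belong to the family of auxin receptors and were listed under miR393. Both had 276 TPB in the IFC library and 520 TPB in the CFC library, and whether tags were shared between them cannot be told apart from equal signals. GRMZM2G137451 had a score of 3, category 0 in both libraries and p-values of 0.00601 in the IFC and 0.00616 in the CFC library. GRMZM5G848945 had a score of 1, category 2 in both and p-values of 0.363 in the IFC and 0.380 in the CFC library. Of the 3 genes, the miR394 target had the highest TPB in each library and the lowest score.

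The guide of those genes is shown for its seed, which differs from that of miR394.
zma-miR393a-5p_R-1: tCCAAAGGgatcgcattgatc
Its NE was 5.35 and 4.32 in IFC ovaries and 36.3 and 3.51 in CFC ovaries. As for miR394a-5p, CFC replicate 1 was highest, CFC replicate 2 lowest and the IFC pair between them.

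An alignment score of 0 was found at 11 of the 208 sites (5.29%), in 9 genes and under 3 miRNA families, miR394, miR156 and miR171. The miR394 target had the highest TPB of these genes in both libraries. GRMZM5G806833 and GRMZM2G061734, both listed under miR156j and the second annotated as an SPL gene, came next, with 1744 and 1685 TPB in the IFC library and 1858 and 1739 TPB in the CFC library. The GRAS genes of miR171 followed, from GRMZM2G110579, with 709 TPB in the IFC library and 914 TPB in the CFC library, down to GRMZM2G051785, with 118 TPB in the IFC library and 420 TPB in the CFC library. At the low end, GRMZM5G878561, an SPL gene of miR156j, had 59.1 TPB in the IFC library and 59.9 TPB in the CFC library, a single tag each, and GRMZM2G148467, listed under miR156j, had 29.6 TPB in the IFC library and 120 TPB in the CFC library. Sites of score 0 thus ranged from 1 tag or less to the 43 and 48.5 tags of the miR394 target.

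Guide level and cleavage signal were set side by side over 17 families that had a listed guide strand and a site, with miR172 left out. For miR394 the guide NE of 139 ranked 9, and the strongest site, at a mean TPB of 2725, ranked 6. Its TPB over NE was 19.5, which ranked 3 after miR160 (485), whose strongest site lies in an auxin response factor gene, and miR393 (32.1). The median over families was 2.55. TPB was not corrected for the level of the target mRNA, which was not measured here, so the ratio is not cleavage per guide. The ratio rests on the uneven CFC libraries: without CFC replicate 1 it was 30.4, beside 90.5 for miR393 and a median of 4.18. Without any other library it was 15.8 to 19.1, and miR394 kept rank 3 except without IFC replicate 2, where it ranked 4. Across families, guide NE and strongest TPB had a Spearman rho of 0.651, as a description over 17 points that share their libraries and include sites credited to 2 families. Of the 19 guide families with a site, 4 had 1 gene listed, miR394 among them, and the median was 2 genes.

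**Figure D5:**
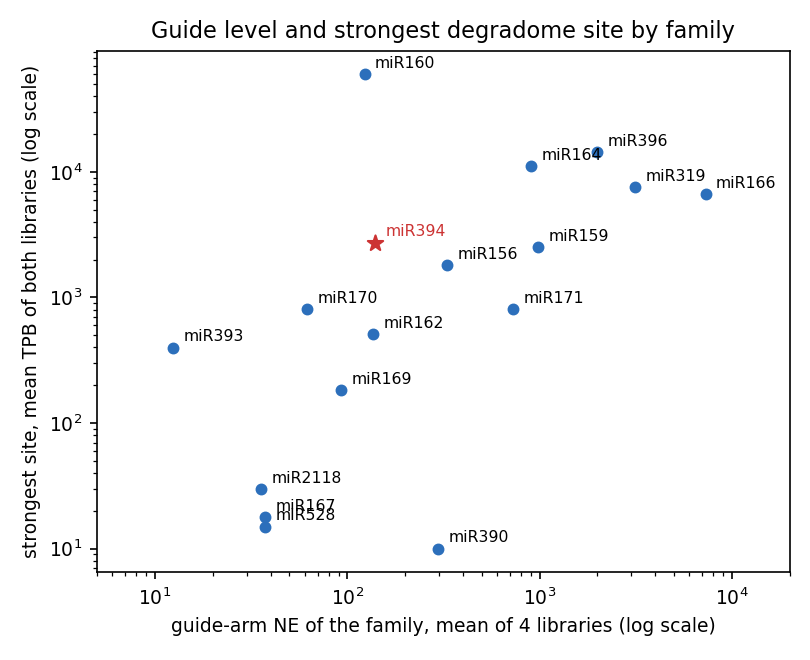
Mean TPB of the strongest degradome site of a family (y axis) against the summed NE of its guide strands, mean of 4 libraries (x axis), both on log scales, for 17 miRNA families. The miR394 star lies at an NE of 139 and a TPB of 2725, above families of like NE such as miR162 and below miR160.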

How the data were processed

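The small RNA files hold NE, which the authors computed as RPM of clean reads after removing adapters, structural RNAs, repeats and exon reads, with ACGT101-miR and the precursors of miRBase 21.0. Deposited beside them are a folding energy and index per precursor, treated as scores, and GC in percent. For the degradome, the authors mapped tags to maize cDNA, ran CleaveLand and Target Finder and deposited the signal as TPB, a category, an alignment score and a p-value per site, keeping all categories. The builds of the genome and cDNA were not stated. A further deposited table has no miR394 entries and was not used.

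IFC and CFC libraries were compared by limma 3.58.1 (R 4.3.3), with lmFit and eBayes on log2(NE + 1) and no block. The test was two-sided and took the 145 known miRNAs whose NE exceeded 1 in any library. Fold changes on this scale understate changes of low miRNAs. Low NE values were whole multiples of 1 read (within 0.012 reads) for 66.3% to 73.8% of values under 50, so the comparison was made on NE and not on counts. Read numbers were used only for intervals and floors of single values. The read totals on which the intervals rest are below the valid reads that the study describes. Other values came from Python 3.11.15 with scipy 1.17.1, and figures from matplotlib 3.10.9. The fit was also run on simulated data with large changes, high levels and a small spread. That run does not show how well it detects changes at the spread of these libraries. Groups follow the sample labels. These do not say which ear a replicate came from, so p-values concern the spread between these samples. In limma the spread of each miRNA is drawn towards a value shared by all tested miRNAs. That shared value carried 13.7 prior degrees of freedom, against 2 residual ones from the libraries. The limma SE, intervals and p-values of miR394a-5p are therefore not a measure of its own replicate spread.

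Members, lists and the rule for named genes were chosen with earlier results of these data known. The rule took the 3 guide miRNAs most like miR394a-5p, its 3 neighbours on either side by NE, those of its target by TPB, genes annotated as F-box, kelch or galactose oxidase, sites of score 0 and the strongest site of each family. The miR172 family was left out of the comparison of families and was not examined by itself. Alternatives were other pseudocounts, filters, scalings and variance models, equal sequences counted once, a replicate block and leaving out each library. Leaving out libraries from the ratio of TPB to NE was chosen after seeing the data.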

Additional observations from a re-analysis of the deposited data

How the results depend on the processing

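The main limit is the number of libraries: 2 a phenotype for the miRNA and 1 mixed library for the cleavage site. The log2 difference of miR394a-5p was 0.06 to 0.14 under pseudocounts of 0.5 and 5, no filter, a filter at an NE of 5, median-of-ratios scaling and a robust fit, and 0.40 when scaled to the known miRNA sum. Leaving out 1 library gave -1.33 to 1.50, below 0 without CFC replicate 2 (-1.33) and without IFC replicate 1 (-0.11). No listed sequences were equal, so counting equal ones once changed nothing. In all of these fits limma called 0 of the tested miRNAs at an adjusted p under 0.05. At an unadjusted p under 0.05 there were 0 to 4, except 24 without CFC replicate 2, with a smallest adjusted p of 0.262.

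Replicate numbers are not stated to mark shared ears. Deviations of same-numbered libraries from their group means had a correlation of 0.25 across 145 miRNAs, which are not independent replicates. With the replicate block the log2 difference was 0.08 (SE 0.78, adjusted p = 0.999, limma), with 0 calls and 3 miRNAs at an unadjusted p under 0.05.

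The rank of the target site by mean TPB was 6 over sites and over category 0 sites, and 21 when every transcript entry was counted. The TPB ratio, IFC over CFC, was 0.874, and 1.30 after division by the medians of genes with category 0 in both libraries. The counting interval was computed for the undivided ratio only and does not cover the choice of scaling. The rank of miR394a-5p by NE was 21 of all known miRNAs and 16 of the guide strands. TPB over NE of miR394 was 19.5, and 15.8 to 30.4 with 1 library left out, an alternative chosen after seeing the data.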
